A study of Rana omeimontis with 6 samples.

Results

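Transcripts of the proteasome were examined in liver of tadpoles of the frog Rana omeimontis, before and after the stage of larval life at which fat builds up in this organ. Its members were taken by name: every transcript cluster, here called a feature, was included when the first protein description attached to it held the word proteasome or the phrase 26S protease regulatory subunit. The rule found 63 of 121726 features. Of these, 50 reached 1 FPKM (fragments scaled by transcript length and by the mapped total of the library) in at least 3 of the 6 libraries, and they stood for 42 genes. The 13 features that did not reach this level went no higher than 1.03 FPKM in any library, and 1 of them was listed at 0 throughout. Each gene was represented by its most abundant feature, which left 8 further features that are described with their genes.

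The proteasome is the large protease of the cytosol and nucleus that breaks down proteins tagged with ubiquitin. Its core is a barrel of stacked rings, with outer rings of alpha subunits that form a gate and inner rings of beta subunits that hold the cutting sites. A regulatory particle docks on the barrel, recognises and removes ubiquitin, and unfolds the substrate with a ring of ATPases, while dedicated chaperones build the complex and then leave it. In liver the proteasome clears damaged and short-lived proteins, among them regulators of metabolism and of apolipoprotein secretion.

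The study compared liver from before ontogenetic fat accumulation (3 libraries) with liver from after it (3 libraries), and its stated interest is how hepatic fat relates to growth and lipid-based energy use. The tadpoles came from a nature reserve in Sichuan, and the labels give no treatment, genotype, age, sex or developmental stage beyond the position relative to fat accumulation. RNA with poly-A tails was sequenced from both ends on an Illumina instrument. The labels do not say whether libraries were separate animals or pools, so p-values reflect the spread between these 6 libraries alone, and that spread may be technical.

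Summed FPKM per library lay between 1358665 and 1442121, and how many fragments a value rests on is unknown. Hepatocyte markers were present, with 8 of 10 measured and summed levels of 6555 to 7206 FPKM before and 10866 to 11935 FPKM after. Transcripts of pancreatic digestive enzymes were also abundant, and all the features matched to a list of 7 such genes, several features to a gene, made up 12.8% to 18.3% of the summed FPKM before and 15.6% to 19.9% after. Summed markers of leukocytes (62.6 to 106.6 FPKM before, 45.9 to 59.4 FPKM after) and cholangiocytes (339 to 365 FPKM before, 219 to 315 FPKM after) were lower after without overlap. Those of erythroid cells (13042 to 17407 FPKM before, 17764 to 22456 FPKM after), stellate cells (16.7 to 22.9 FPKM before, 28.6 to 42.8 FPKM after) and cycling cells (33.2 to 48.9 FPKM before, 109 to 127 FPKM after) were higher after without overlap. Endothelial markers were low, at 6.05 to 9.84 FPKM before and 5.31 to 7.75 FPKM after. Only 6 of 10 leukocyte, 4 of 6 erythroid, 2 of 4 cholangiocyte and 3 of 6 cycling markers were matched to a feature. The 3 cycling markers were each higher without overlap. PCNA alone made up 30.0 to 42.1 FPKM of their sum before and 97.2 to 112 FPKM after. KRT19 carried most of the cholangiocyte sum, and EPCAM overlapped. HBA1 and HBB carried most of the erythroid sum, and HBA1 overlapped. The exact permutation test of these sums could not pass, since the smallest two-sided p for 3 against 3 libraries is 0.1 (0.133 after Benjamini-Hochberg adjustment over the 8 lists). In the fit over all features (limma, Benjamini-Hochberg adjusted p in parentheses) single markers did pass: ALB (3.54 on the log2 scale, 0.0163) and TTR (3.69, 0.0108) of hepatocytes, PCNA (1.58, 0.00854) and MCM2 (1.59, 0.0251) of cycling cells and COL1A2 (1.17, 0.0442) of stellate cells rose, and CTRB1 (-1.34, 0.00908) of the pancreas fell. The lists were not uniform. Of the 8 hepatocyte markers measured, 3 were higher without overlap, and TF had a negative difference (-0.30, 0.584). FGA, APOA1, APOB and AMBP overlapped between the stages (0.46, 0.83, 0.27 and 1.53, adjusted p 0.199 to 0.475). Of the 4 stellate markers that passed the filter on low values, 2 were higher without overlap and 1, COL1A1, was lower without overlap (-1.75, 0.0574). COL1A1 passed that filter through its libraries before alone, so its direction was fixed in advance and is no result. CTRB1 was the only pancreas marker to pass, and PRSS1, the most abundant of that list, differed by 0.16 (0.629). The part of these cell types in the results below was not tested. In bulk tissue, fewer cells of a type and less RNA per cell cannot be told apart.

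Proteasome transcripts were higher after fat accumulation across both the core and the regulatory particle. Summed over the 42 genes they came to 1358, 1451 and 1808 FPKM before and to 2277, 2386 and 2159 FPKM after, a ratio of means of 1.48, and the stages did not overlap. Of the 42 genes, 12 rose past the threshold (limma on log2(FPKM + 1), Benjamini-Hochberg adjusted p under 0.05) and 0 fell, where 4.64% of all 40548 features rose and 4.0% fell. In 34 genes every library after was above every library before, and in 2 genes, PSMC4 and PSMD10, every library after was below. The 34 include PSME3, which passed the filter on low values through its libraries after alone, so that its direction was fixed; 33 of the other 41 genes were higher without overlap. The same separation upwards was seen in 15.7% of all features and the same separation downwards in 16.8%.

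Proteasome genes are well expressed, and abundant features passed the threshold more often. Among the 6678 features with a mean of at least 10 FPKM, 12.1% rose, 6.12% fell, and 27.9% were higher and 18.9% lower without overlap. Of the 34 proteasome genes at that level, 11 rose and 27 were higher without overlap. The median of the log2(FPKM + 1) differences, taken as after minus before, was 0.65 over the 42 genes, 0.08 over features of at least 10 FPKM and -0.08 over all features. A further 11 genes had adjusted p values between 0.05 and 0.1, and 30 of the 42 had an unadjusted p under 0.05, of which 29 were higher (28 without PSME3) and 1, PSMD10, was lower. In either direction, 2760 of the 6678 features of at least 10 FPKM and 10788 of all 40548 had an unadjusted p under 0.05.

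The number of calls depended on single libraries. Counted over all 50 features, leaving out before replicate 3 gave 14 higher members, leaving out after replicate 1 gave 5 and leaving out before replicate 2 gave 4. The 5 include a further PSMD3 feature that did not pass with all libraries. Only PSMA3 was left when after replicate 2, after replicate 3 or before replicate 1 was removed. Calls were also lost over all features, of which 1882 rose with every library in. Without before replicate 3, after replicate 1 and before replicate 2, 1184, 950 and 705 features rose. Without after replicate 2, after replicate 3 and before replicate 1, 418, 392 and 527 features rose. None of the 42 genes changed sign under the alternatives tried. For genes whose stages did not overlap, however, leaving out a library cannot change the sign. Other filters, other variance settings and the replicate block leave each difference as it was, so under these the sign was fixed in advance. Before replicate 3 had the highest value of its stage in 39 of the 42 genes, and its median-of-ratios scaling factor, 1.22, was the largest of the 6. After this scaling it was highest in 14 genes, 36 genes were higher without overlap and 1 was lower without overlap, 26 genes rose and 1 fell, and all 12 genes named as risen below were among the 26. The gain in calls was not confined to the proteasome, as over all features more also rose and more also fell with this scaling. Of the 6678 features of at least 10 FPKM, 2169 were then higher and 1205 lower without overlap, against 1862 and 1262 without the scaling.

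**Figure D1:**
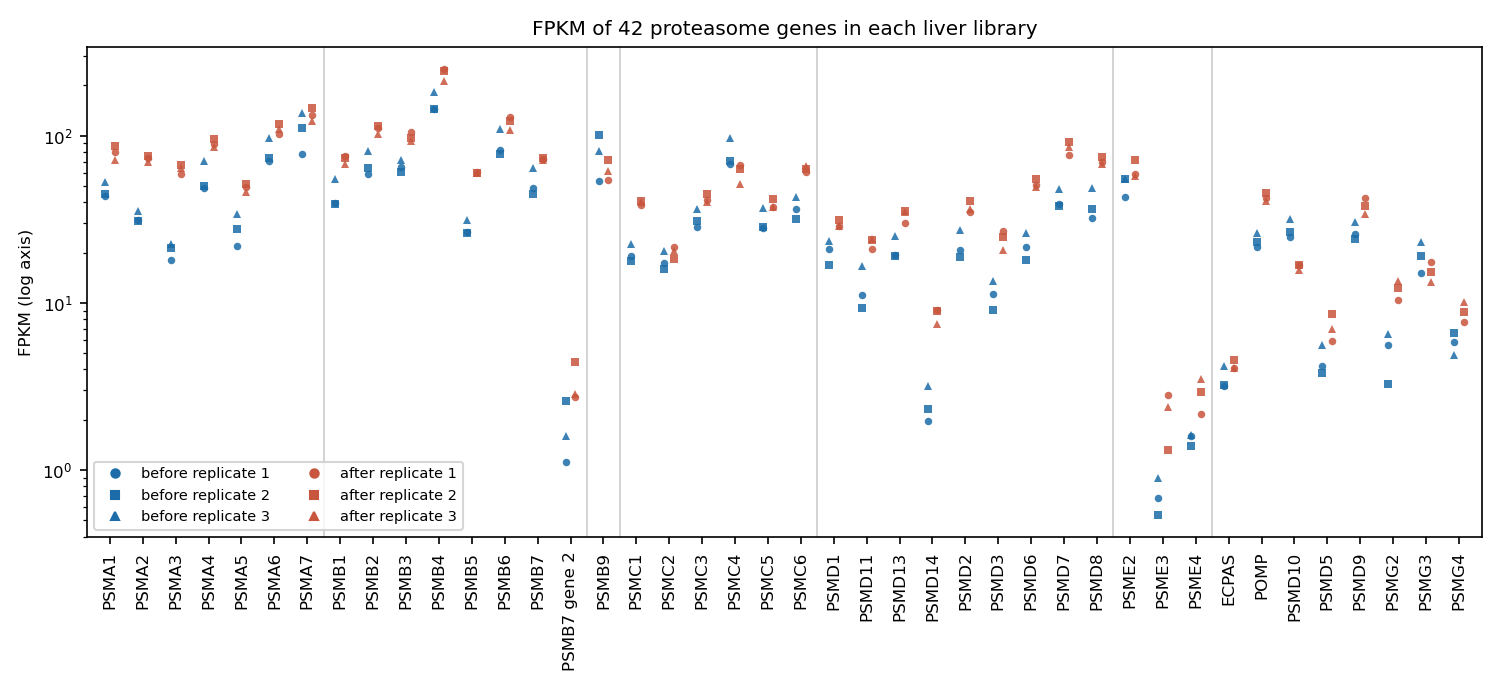
FPKM (log axis) of each of the 42 proteasome genes in the 6 libraries, with blue for before and red for after fat accumulation and 1 symbol shape per replicate number; grey lines separate the role groups. Red symbols lie above blue ones in 34 genes, and before replicate 3 (blue triangles) is the highest library of its stage in 39.

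The alpha subunits form the outer rings of the core and its gate. All 7 were measured, 3 rose (PSMA1, PSMA2 and PSMA3), and 6 were higher in every library after than in any before, against 4.64% and 15.7% of all features. The shares were 12.1% and 27.9% among features of at least 10 FPKM. Summed, the 7 alpha subunits came to 312, 360 and 450 FPKM before and to 588, 641 and 569 FPKM after, a ratio of 1.60. Their median difference was 0.74 on the log2(FPKM + 1) scale.

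PSMA3, whose tail binds several substrates directly in mammals, lay at 18.0, 21.2 and 22.5 FPKM before and at 59.2, 66.5 and 63.9 FPKM after. The stages were far apart relative to their spread: means differed 3.07-fold, and the log2 difference was 1.58 with a standard error of 0.171 (limma, Benjamini-Hochberg adjusted p = 0.00700). It was the proteasome gene that passed whichever library was left out, with 0.0413 as the highest adjusted p, reached without after replicate 3.

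PSMA2 lay at 31.3, 30.9 and 35.5 FPKM before and at 73.6, 75.7 and 69.8 FPKM after. It was higher in all 3 libraries after by 1.14 log2 units (SE 0.156, limma, Benjamini-Hochberg adjusted p = 0.0125), a 2.24-fold difference of means, and its adjusted p was 0.0617 without after replicate 2. PSMA1 lay at 43.7, 45.1 and 53.1 FPKM before and at 80.0, 87.4 and 71.2 FPKM after. Its stages did not overlap, but its rise of 0.74 log2 units (SE 0.170, adjusted p = 0.0464) was close to the threshold and was not called in any fit with a library left out (adjusted p 0.0573 to 0.155).

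PSMA7, the most abundant alpha transcript in all 6 libraries, lay at 78.1, 112 and 137 FPKM before and at 134, 146 and 123 FPKM after. Its before libraries were the most scattered of the ring and overlapped those after, with a difference of 0.34 (SE 0.231, limma adjusted p = 0.412). The other 3, PSMA4, PSMA5 and PSMA6, were higher after without overlap by 0.46 to 0.82 log2 units and did not pass (adjusted p 0.0592 to 0.170).

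As each ring holds 1 copy of every alpha subunit, their relative levels can be set side by side per length. Before, PSMA3 was the least abundant alpha transcript and PSMA7 exceeded it 4.35-, 5.26- and 6.08-fold in the 3 libraries. After, PSMA5 was the least abundant and PSMA7 exceeded it 2.70-, 2.83- and 2.67-fold. The spread of levels within the ring was thus narrower in each library after than in any before.

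The beta subunits form the inner rings. The 7 constitutive ones and a further PSMB7 gene, called gene 2 in its description, were all measured. Only PSMB5 rose past the threshold, 7 of these 8 were higher in every library after, and the median difference was 0.62 on the log2(FPKM + 1) scale. Summed over all 8, the levels were 466, 460 and 598 FPKM before and 807, 789 and 717 FPKM after, a ratio of 1.52. The 12.5% of the group that passed was close to the 12.1% that rose among features of at least 10 FPKM. Of those features 27.9% were higher without overlap, and of all features 4.64% rose and 15.7% were higher without overlap.

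PSMB5, PSMB6 and PSMB7 carry the cutting sites. PSMB5, with the chymotrypsin-like site that is the main target of proteasome inhibitor drugs, lay at 26.5, 26.4 and 31.5 FPKM before and at 60.4, 60.2 and 59.9 FPKM after. It was 2.14-fold higher, with the after libraries nearly equal, and its log2 difference was 1.08 (SE 0.162, limma, Benjamini-Hochberg adjusted p = 0.0158; 0.0704 without after replicate 2).

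PSMB6, with the caspase-like site, lay at 82.6, 77.8 and 109 FPKM before and at 129, 122 and 108 FPKM after. The lowest library after was just under the highest before, and the difference of 0.42 (SE 0.186) did not pass (limma adjusted p = 0.207). PSMB7, with the trypsin-like site, lay at 48.5, 45.0 and 63.9 FPKM before and at 72.8, 74.0 and 71.5 FPKM after, which was higher without overlap and also missed the threshold (0.48, SE 0.184, adjusted p = 0.155). PSMB7 gene 2 was scarce, at 1.12, 2.60 and 1.60 FPKM before and 2.73, 4.44 and 2.86 FPKM after (adjusted p = 0.227).

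The non-catalytic PSMB1, PSMB2, PSMB3 and PSMB4 differed by 0.57 to 0.70 log2 units without overlap and had adjusted p values of 0.0626 to 0.0777. PSMB4 was the most abundant proteasome transcript, with a mean of 157 ± 22.6 FPKM before and 235 ± 20.6 FPKM after (SD, n = 3 each). PSMB5 was the least abundant of the 7 constitutive beta transcripts in every library. PSMB4 exceeded it 5.43-, 5.48- and 5.82-fold before and 4.14-, 4.04- and 3.53-fold after, without overlap. A further PSMB3 feature was level across the stages, at 11.5 to 13.9 FPKM before and 13.1 to 14.6 FPKM after.

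Immune cells and interferon-treated cells of mammals replace the catalytic beta subunits with immunoproteasome versions, and PSMB9 takes the place of PSMB6. PSMB9 lay at 53.8, 101 and 80.9 FPKM before and at 54.5, 71.3 and 61.3 FPKM after. The stages overlapped and the difference of -0.29 (SE 0.261) did not pass (limma adjusted p = 0.533), so its direction differed from that of the 15 other core genes only as a point estimate. That estimate rested on single libraries: it was -0.09 without before replicate 2 and -0.54 without before replicate 1 (adjusted p 0.231 to 0.863 over the fits with a library left out). The ratio of PSMB9 to PSMB6 was 0.651, 1.30 and 0.742 before and 0.422, 0.582 and 0.568 after, lower in every library after than in any before. Summed leukocyte markers were also lower after, as given above. Of the 5 that passed the filter on low values, 0 fell past the threshold (limma). TYROBP alone was lower without overlap, and PTPRC differed by 0.01. The part of leukocytes in the ratio of PSMB9 to PSMB6 was not tested.

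PSMB8, the immunoproteasome counterpart of PSMB5, was named by another word in its description and so lay outside the rule. Its 3 features summed to 9.83, 17.8 and 10.3 FPKM before and to 13.1, 22.3 and 18.8 FPKM after, and its most abundant feature differed by 0.08 (limma adjusted p = 0.917). The other features differed by 0.95 with overlap and by 0.79 without overlap (limma adjusted p = 0.543 and 0.157). The ratio of the PSMB8 sum to PSMB5 was 0.371, 0.673 and 0.328 before and 0.218, 0.370 and 0.314 after, and the stages overlapped. PSMB10 was not analysed here.

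**Figure D2:**
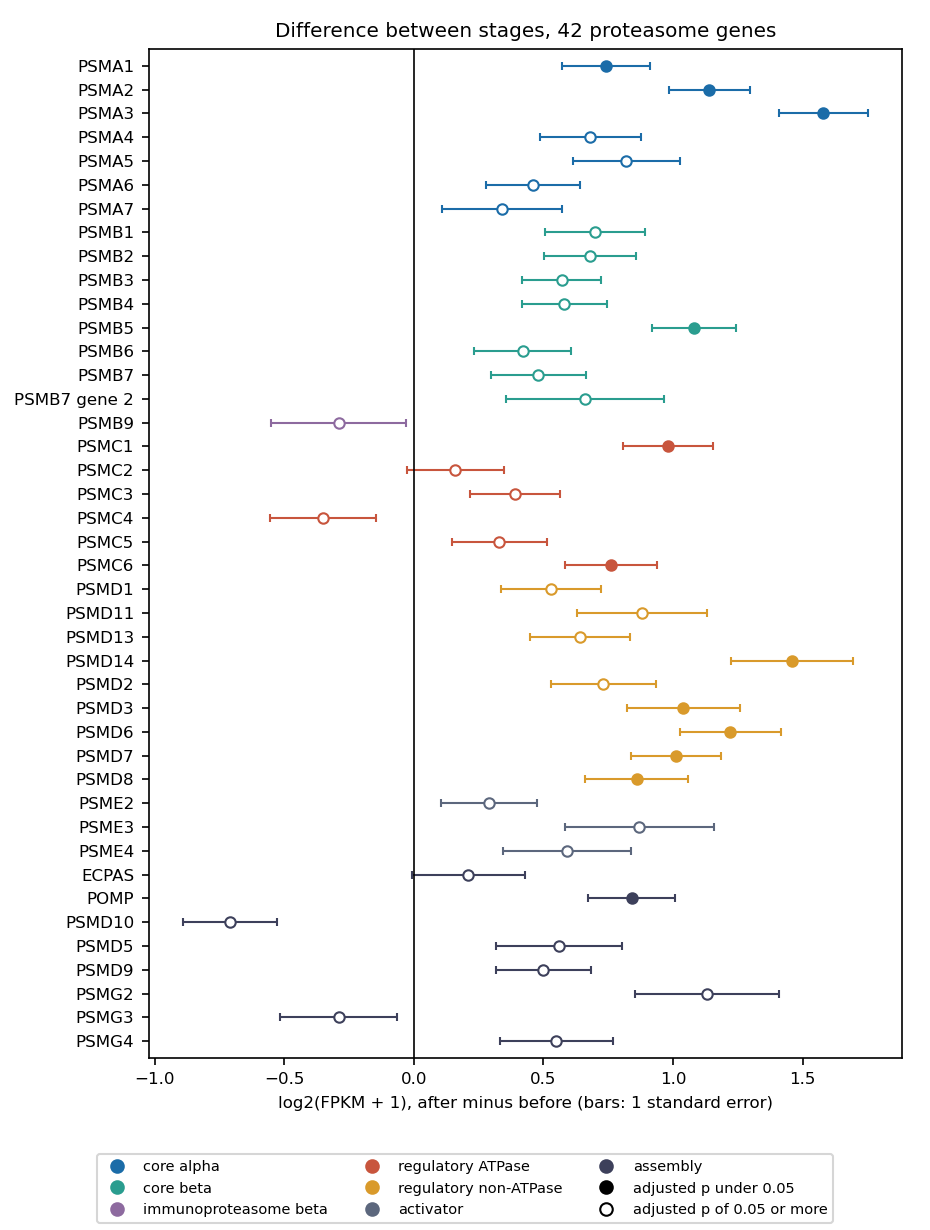
Difference in log2(FPKM + 1), after minus before, of each of the 42 proteasome genes, with bars of 1 standard error from limma; colours give the role group and filled points an adjusted p under 0.05. The 12 filled points all lie to the right of 0, and 4 genes (PSMB9, PSMC4, PSMD10 and PSMG3) lie to the left.

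The ATPases of the regulatory particle form the ring that opens the gate and threads the substrate into the barrel. All 6 were measured and 2 rose, PSMC1 and PSMC6. Of the 4 structural groups it had the smallest ratio between stages: its sum was 197, 196 and 256 FPKM before and 268, 272 and 255 FPKM after, a ratio of 1.22 with overlap, and its median difference was 0.36 on the log2(FPKM + 1) scale. Of all features 4.64% rose, and of those of at least 10 FPKM 12.1%.

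PSMC1, whose tail docks into the alpha ring and helps open the gate in yeast, lay at 19.1, 17.8 and 22.5 FPKM before and at 38.7, 40.8 and 40.1 FPKM after. It was 2.01-fold higher without overlap, by 0.98 log2 units (SE 0.173, limma, Benjamini-Hochberg adjusted p = 0.0233; 0.0911 without after replicate 2). PSMC6 lay at 36.3, 31.8 and 43.3 FPKM before and at 61.1, 63.0 and 65.6 FPKM after. Its rise was 0.76 log2 units (SE 0.177, adjusted p = 0.0471; 0.146 without after replicate 3), and the protein description it carries is that of a human protein.

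PSMC4 went the other way. It was the most abundant ATPase transcript before, at 67.5, 70.9 and 96.5 FPKM, and lay at 67.1, 63.1 and 51.6 FPKM after. Every library after was lower than every library before, though by a narrow margin between the nearest pair, and the difference of -0.35 (SE 0.206) did not pass (limma adjusted p = 0.332). With median-of-ratios scaling the stages of PSMC4 overlapped. PSMC2, PSMC3 and PSMC5 differed by 0.16, 0.39 and 0.33 log2 units (adjusted p 0.213 to 0.636), with overlap in PSMC2 alone. PSMC2 was the least abundant ATPase transcript in every library. The most abundant exceeded it 3.89-, 4.46- and 4.73-fold before and 3.12-, 3.46- and 3.20-fold after, without overlap.

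The non-ATPase subunits form the base scaffold and the lid of the regulatory particle, where ubiquitin is bound and removed. All 9 that were measured were higher in every library after than in any before, and 5 rose past the threshold: PSMD3, PSMD6, PSMD7, PSMD8 and PSMD14, all of them lid subunits. Of all features 4.64% rose and 15.7% were higher without overlap, and of those of at least 10 FPKM 12.1% and 27.9%. For the 9 non-ATPase subunits, levels were also summed. Their sum was 178, 167 and 232 FPKM before and 348, 387 and 356 FPKM after, a ratio of 1.89, and their median difference was 0.88 on the log2(FPKM + 1) scale. The ubiquitin receptor PSMD4 was not analysed here.

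PSMD14 is the metalloprotease that cuts ubiquitin chains off the substrate at the mouth of the ATPase ring. It lay at 1.96, 2.32 and 3.18 FPKM before and at 9.1, 9.0 and 7.44 FPKM after. The means differed 3.42-fold without overlap, and the log2 difference was 1.46 (SE 0.236, limma, Benjamini-Hochberg adjusted p = 0.0189; 0.0751 without after replicate 2). A further PSMD14 feature lay at 0.900, 0.590 and 2.15 FPKM before and at 2.42, 3.30 and 4.64 FPKM after, also without overlap (1.04, adjusted p = 0.118).

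PSMD7, the inactive partner that pairs with PSMD14 in the lid, lay at 39.1, 37.9 and 47.9 FPKM before and at 76.9, 91.6 and 86.2 FPKM after. It was 2.04-fold higher, by 1.01 log2 units (SE 0.173, limma, Benjamini-Hochberg adjusted p = 0.0213; 0.0875 without after replicate 2). Although the proteins pair 1 to 1, PSMD14 transcripts were only 0.0501, 0.0612 and 0.0664 of those of PSMD7 before and 0.118, 0.0983 and 0.0863 after. That ratio was higher in every library after, and as PSMD14 was split over 2 features its level is uncertain.

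PSMD6, also a lid subunit, lay at 21.5, 18.0 and 26.3 FPKM before and at 50.7, 55.4 and 49.4 FPKM after. All 3 libraries after were well above those before, with a difference of 1.22 log2 units (SE 0.195, limma, Benjamini-Hochberg adjusted p = 0.0186; 0.0770 without after replicate 2) and a 2.36-fold ratio of means. PSMD3 lay at 11.3, 9.04 and 13.5 FPKM before and at 26.8, 24.8 and 20.7 FPKM after. It was higher without overlap by 1.04 log2 units (SE 0.220, adjusted p = 0.0367), a call that was lost in every fit with a library left out (adjusted p 0.0504 to 0.120). A further PSMD3 feature was low and scattered, at 0.970, 1.88 and 2.41 FPKM before and 1.84, 8.34 and 11.4 FPKM after, and overlapped (1.36, adjusted p = 0.188).

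PSMD8, which joins the lid late in its assembly in yeast, lay at 32.1, 36.3 and 48.4 FPKM before and at 69.6, 74.9 and 67.8 FPKM after. It was higher without overlap, by 0.86 log2 units (SE 0.198, limma, Benjamini-Hochberg adjusted p = 0.0458; 0.145 without after replicate 2). PSMD11, the lid subunit that braces core and regulatory particle, lay at 11.1, 9.26 and 16.7 FPKM before and at 21.1, 23.9 and 24.0 FPKM after. It was also higher without overlap but missed the threshold, at 0.88 (SE 0.249, adjusted p = 0.0764).

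PSMD1, the largest base scaffold subunit, lay at 21.0, 16.8 and 23.5 FPKM before and at 29, 31.1 and 28.7 FPKM after. Its stages were apart, and its difference of 0.53 (SE 0.192) did not pass (limma adjusted p = 0.139). PSMD2, the other base scaffold subunit, and PSMD13 of the lid differed by 0.73 and 0.64 log2 units (adjusted p = 0.0720 and 0.0893). PSMD14 was the least abundant of the 9 in every library: the most abundant exceeded it 19.9-, 16.3- and 15.2-fold before and 8.45-, 10.2- and 11.6-fold after, without overlap.

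**Figure D3:**
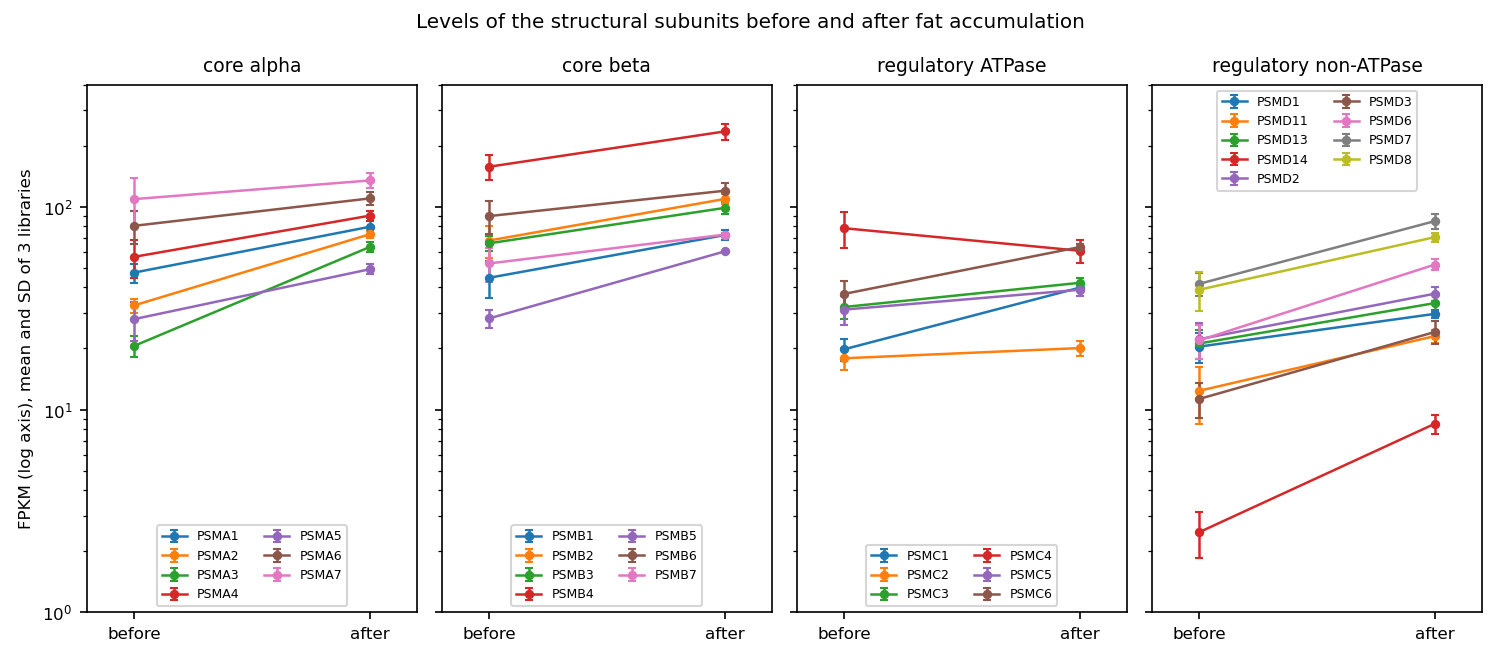
Mean FPKM (log axis) of each structural subunit before and after fat accumulation, with bars of 1 SD over 3 libraries, in separate panels for the 7 alpha, 7 constitutive beta, 6 ATPase and 9 non-ATPase subunits. All lines rise except that of PSMC4, and in each panel the highest and the lowest level lie closer together after than before.

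Activators bind the core in place of the regulatory particle. Of the 3 that were measured, PSME2 and PSME4 were higher in every library after, and PSME3 was kept through its libraries after alone. None passed the threshold (limma; PSME4 had an unadjusted p under 0.05 and PSME2 did not). Higher without overlap were 15.7% of all features and 27.9% of those of at least 10 FPKM. PSME2, a subunit of the interferon-inducible activator of mammals, lay at 43.0, 54.8 and 55.3 FPKM before and at 58.7, 71.4 and 57.4 FPKM after, a difference of 0.29 (SE 0.186, limma adjusted p = 0.379). It was the only abundant activator transcript, and its nearest libraries of the opposite stages were close.

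PSME3, the nuclear activator, lay at 0.680, 0.540 and 0.890 FPKM before and at 2.82, 1.32 and 2.37 FPKM after (0.87, SE 0.286, limma adjusted p = 0.110). All its libraries before were under 1 FPKM, so its separation is no result. PSME4, which serves histone breakdown in mammals, lay at 1.60, 1.39 and 1.63 FPKM before and at 2.17, 2.95 and 3.49 FPKM after (0.59, SE 0.246, adjusted p = 0.183). With FPKM summed over all PSME4 features the difference was 0.08. A further PSME2 feature, described from mouse, was at 0, 1.0 and 1.46 FPKM before and at 0, 0 and 1.03 FPKM after (-0.43, limma adjusted p = 0.612). PSME1 and the inhibitor PSMF1 were not analysed here.

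The assembly group held 8 genes with mixed directions. Only POMP rose, 5 of the 8 were higher without overlap and 1, PSMD10, was lower without overlap. The sum was 106, 110 and 133 FPKM before and 147, 150 and 139 FPKM after, a ratio of 1.25, and the median difference was 0.53 on the log2(FPKM + 1) scale. The 12.5% of the group that rose was close to the 12.1% among features of at least 10 FPKM. Of those features 27.9% were higher and 18.9% lower without overlap. Among all features 4.64% rose, and 15.7% were higher and 16.8% lower without overlap.

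POMP, the chaperone that drives beta ring assembly and is the first substrate of the finished core, lay at 21.5, 23.0 and 26.1 FPKM before and at 42.3, 45.7 and 40.7 FPKM after. It was 1.82-fold higher without overlap, by 0.84 log2 units (SE 0.169, limma, Benjamini-Hochberg adjusted p = 0.0318; 0.119 without after replicate 2). Relative to PSMB5, POMP stood at 0.812, 0.873 and 0.828 before and at 0.701, 0.758 and 0.680 after, so that its own rise was smaller than that of PSMB5 in every pair of libraries.

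PSMG2 and PSMG4 belong to the paired chaperones that build the alpha ring in mammals. PSMG2 lay at 5.57, 3.26 and 6.51 FPKM before and at 10.4, 12.2 and 13.6 FPKM after. It was 2.36-fold higher without overlap and narrowly missed the threshold (1.13, SE 0.277, limma adjusted p = 0.0537), which it passed in 3 of the 4 other scalings. No fit with a library left out brought it past the threshold (limma adjusted p 0.0666 to 0.162). PSMG4 differed by 0.55 (adjusted p = 0.169), with no overlap. PSMG1 was not analysed here.

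PSMG3, the partner of PSMG4, was among the 4 genes with a negative difference. It lay at 15.2, 18.97 and 23.3 FPKM before and at 17.5, 15.3 and 13.3 FPKM after, and the stages overlapped (-0.29, SE 0.227, limma adjusted p = 0.476). Its 3 further features differed by -0.89, 0.09 and 0.27, so that the gene's level is uncertain.

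PSMD10, PSMD9, PSMD5 and PAAF1 are chaperones of the ATPase ring in mammals. PSMD10, also known as gankyrin, binds PSMC4 and is raised in human liver cancers. It lay at 24.8, 26.6 and 31.6 FPKM before and at 16.8, 16.9 and 15.7 FPKM after. Every library after was lower than every library before, by a ratio of means of 1.68, yet the difference of -0.71 (SE 0.180) missed the threshold (limma, Benjamini-Hochberg adjusted p = 0.0595). It passed with median-of-ratios scaling (-0.63, adjusted p = 0.0427) and with quantile normalization (-0.81, adjusted p = 0.0230). Scaling to equal totals, with or without the pancreas features, left it short of the threshold (adjusted p = 0.0801 and 0.0647). So did every fit with a library left out (adjusted p 0.107 to 0.173). PSMD10 was singled out after its values were seen, and the protein description it carries is that of a rodent.

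Among the other ATPase-ring chaperones, only PAAF1 had the sign of PSMD10, and its stages overlapped. PSMD9 and PSMD5 differed by 0.50 and 0.56 (limma adjusted p = 0.139 and 0.202), both higher without overlap. PAAF1, which lay outside the naming rule, stood at 5.87, 4.67 and 7.81 FPKM before and at 5.50, 5.58 and 4.61 FPKM after (-0.17, adjusted p = 0.705), with overlap. The ratio of PSMD10 to its partner PSMC4 was 0.367, 0.375 and 0.327 before and 0.250, 0.268 and 0.305 after, lower in each library after. ECPAS, which tethers core and regulatory particle in yeast, differed by 0.21 (adjusted p = 0.593).

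Genes that work with the proteasome but are no subunits, here called companion genes, were read from a list of 26, of which 20 were matched to a feature and 18 passed the filter on low values (TAP1 and TAPBP did not). Of these 18, 7 had an unadjusted limma p under 0.05, as had 2760 of the 6678 abundant features and 10788 of all 40548. Past the adjusted threshold, 2 of the 18 rose (UCHL5 and TXNL1) and 0 fell. That share of 11.1% was close to the 12.1% that rose among features of at least 10 FPKM and above the 4.64% of all features. Without overlap, 8 were higher and 1, ADRM1, was lower, where 15.7% of all features and 27.9% of the abundant ones were higher. Their median difference was 0.33 on the log2(FPKM + 1) scale.

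UCHL5, a deubiquitinase that docks on the regulatory particle, lay at 2.44, 2.04 and 2.97 FPKM before and at 10.4, 11.6 and 13.5 FPKM after. It was 4.77-fold higher, by 1.88 log2 units (SE 0.224, limma, Benjamini-Hochberg adjusted p = 0.00879), and passed whichever library was left out (highest adjusted p 0.0466, without after replicate 3). ADRM1, the ubiquitin receptor that anchors UCHL5, lay at 53.7, 56.4 and 83.7 FPKM before and at 47.1, 48.5 and 45.6 FPKM after. Those stages were apart in the opposite direction, and the difference of -0.42 (SE 0.212) did not pass (adjusted p = 0.264). The ratio of UCHL5 to ADRM1 was 0.0454, 0.0362 and 0.0355 before and 0.222, 0.238 and 0.296 after, so that the relative level of UCHL5 was several times higher in each library after.

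TXNL1, a thioredoxin-like protein bound to the regulatory particle, lay at 20.2, 20.7 and 27.0 FPKM before and at 38.5, 43.4 and 39.3 FPKM after. It was higher without overlap by 0.82 log2 units (SE 0.188, limma, Benjamini-Hochberg adjusted p = 0.0460; 0.149 without after replicate 2).

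**Figure D4:**
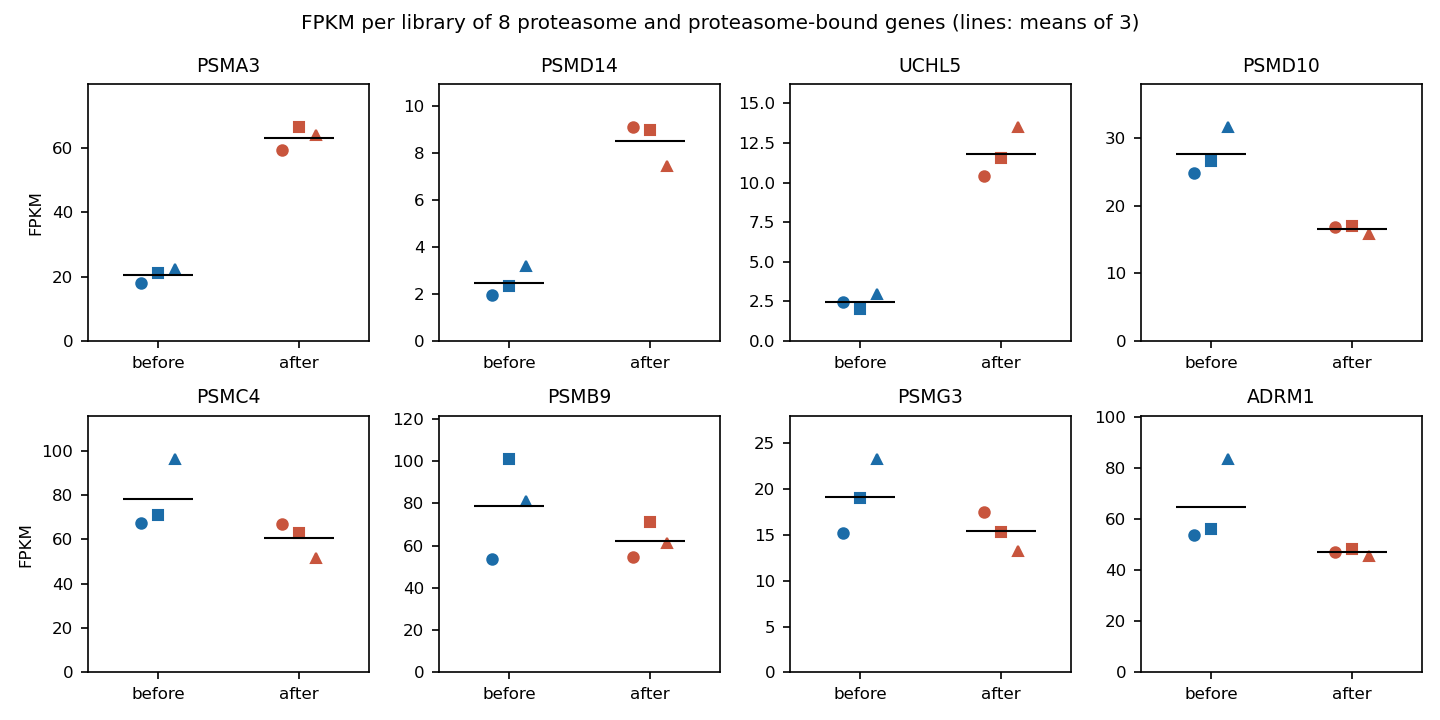
FPKM per library (linear axes from 0) of PSMA3, PSMD14 and UCHL5, which rose, and of PSMD10, PSMC4, PSMB9, PSMG3 and ADRM1, whose differences were negative and did not pass; lines are means of 3 libraries and symbol shapes the replicate numbers. In the first 3 panels the stages are far apart, and PSMD10 reaches 31.6 FPKM before and 16.9 FPKM after.

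The transcription factor NFE2L1 raises proteasome genes in mammals once it is freed by VCP, stripped of its sugars and clipped by the protease DDI2. NFE2L1 transcripts lay at 10.1, 7.19 and 12.1 FPKM before and at 13.8, 19.8 and 18.9 FPKM after, which was higher without overlap and did not pass (0.79, SE 0.258, limma adjusted p = 0.107). DDI2 differed by 0.81 (adjusted p = 0.103), also without overlap, and VCP by 0.19 (adjusted p = 0.548). The shuttle factors RAD23B and UBQLN1, which carry ubiquitin-tagged proteins to the proteasome, differed by 0.77 and 0.82 and just missed the threshold (adjusted p = 0.0518 and 0.0700). Of the genes of peptide presentation, B2M differed by -0.17 (adjusted p = 0.723), TAP2 by -0.03 and ERAP1 by 0.36 (adjusted p = 0.542).

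Proteasome levels varied more between the libraries before than between those after, and much of that spread went with the level of before replicate 3. The coefficient of variation was larger before in 40 of the 42 genes, with a median of 17.1% before and 7.49% after. Among the 6678 features of at least 10 FPKM it was larger before in 4026, with medians of 23.2% and 18.6%. With median-of-ratios scaling it was larger before in 31 of the 42 genes, with medians of 8.27% before and 6.13% after, and in 3509 of the abundant features, with medians of 19.7% and 18.3%. The ratio of the summed proteasome FPKM after to that before was 1.57 on the scaled values, and each library after lay above each library before, at 2239, 2292 and 2297 against 1306, 1574 and 1477.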

How the data were processed

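Per the labels' protocols, liver RNA was poly-A selected, primed with random hexamers and sequenced as paired-end reads. The authors deposited 1 matrix of FPKM values with a protein description per transcript cluster, per the file headers. For the assembler, the aligner and the FPKM program the sources used here give no name. No genome or sequence was used. FPKM hold no depth, so no counting interval is given.

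Symbols were read from the descriptions, and the feature with the highest mean FPKM stood for each gene. The members and gene lists were chosen with earlier results of these data known. The limma package (3.58.1, R 4.3.3) was fitted to log2(FPKM + 1) of the 40548 features that reached 1 FPKM in 3 or more libraries, with stage as the factor and a trended eBayes, and its two-sided p-values were adjusted by Benjamini-Hochberg against a threshold of 0.05. This scale understates changes of low genes. Summed markers were compared with exact permutation tests (scipy 1.17.1, Python 3.11.15). The fit was tested on simulated data.

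Values per library are given for members past the threshold, for those with an absolute log2 difference of at least 1 and for a fixed list of subunits; others were added after their values were seen. A further gene of the companion list is not reported here, and the 26 of that list do not include it. Clusters that split a gene, and close relatives, can share reads. Alternatives were other pseudocounts (0.1 and 0.5), other filters (none, or 5 FPKM), other scalings, other variance settings, library weights, sums per symbol, the replicate number as a block, members described from vertebrates other than rodents and humans, and leaving out each library. Rescaling without the pancreas-list features was added after seeing the data.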

Additional observations from a re-analysis of the deposited data

How the results depend on the processing

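Over 794 alternative values for single proteasome genes, 666 kept their direction and side of the threshold, 51 passed only in the alternative, 77 passed only as reported, and 0 changed sign. Many of these alternatives could not change a sign, as given above. The count of members higher after, 12 as reported, was 3 without a filter, 19 at a filter of 5 FPKM (41 members left), 26 with median-of-ratios scaling, 20 with equal totals leaving out the pancreas features, 7 with eBayes without a trend and 22 with library weights; 1 member was lower at the filter of 5 FPKM, with median-of-ratios scaling and with quantile normalization. Leaving out 1 library gave 1 to 14 members higher, 1 to 2 companion genes higher and 0 lower, and over all features 691 to 1867 called, 392 to 1184 higher and 299 to 917 lower. Without a filter 1067 features were called, 634 higher and 433 lower. With median-of-ratios scaling more features were called than as reported, in both directions. Companion genes higher after were 1 without a filter and with eBayes without a trend, 4 at the filter of 5 FPKM and with library weights, 7 with median-of-ratios scaling and 5 with quantile normalization. The activator median was 0.83 at a pseudocount of 0.1 and 0.29 at the filter of 5 FPKM, which leaves 1 gene, and the non-ATPase median ran from 0.83 to 1.10 with a library left out. The cause of these shifts was not tested.

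The difference of the summed pancreas markers, 0.10, ran from -0.05 to 0.23 with a library left out. Deviations of same-numbered libraries correlated at -0.00489, -0.0387 and -0.0876. These values gave no sign that the replicate numbers pair the samples, but so few libraries per stage cannot exclude it. With the number as a replicate block 339 features were called, 194 higher and 145 lower, with 0 members and 0 companion genes in either direction. Depth is unknown, so low transcripts such as PSME3, PSME4 and PSMB7 gene 2 are the least precise.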
